A study of Mus musculus with 6 samples.

Results

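Endothelial cells line blood vessels and pericytes wrap the capillaries, and the genes described here mark these cells or the blood-brain barrier. They were taken from a fixed list of 43 gene symbols, by matching each symbol to rows of the array table that carry exactly 1 gene symbol. Of these, 40 matched under their own symbol, and Gpr124 matched under Adgra2, for which RefSeq lists it as a synonym. Vtna and Zic0 matched no row and have no value here. The 41 genes with a value stand among 22180 genes with a row, and comprise 29 endothelial, 6 barrier and 6 pericyte genes. Angpt1, a ligand of the endothelial receptor Tek, was counted as endothelial, although other cells make it. The dissected cortex of 6 mouse embryos was profiled at E12.5, with 1 array per embryo. The 3 embryos called DKO carried floxed Lats1 and floxed Lats2 (Lats1F/F;Lats2F/F) with Nestin-Cre, and the other 3 are labelled control with no further genotype. All samples were untreated. Nestin-Cre acts mainly in neural progenitors, so most of the cells that these 41 genes mark lie outside the lineage it chiefly targets. Lats1 and Lats2 are the Hippo pathway kinases that restrain the coactivators YAP and TAZ.

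Vessels enter the cortical wall from the surrounding plexus in mid-gestation. Neural progenitors attract them with secreted VEGF, which signals through the receptor tyrosine kinases Kdr and Flt1, and with Wnt7 ligands, which signal through a receptor complex that includes Gpr124. Angiopoietins act on the endothelial receptor Tek (Tie2), and endothelial Pdgfb recruits pericytes that bear Pdgfrb. As the vessels mature into a blood-brain barrier, their endothelium gains transporters such as Mfsd2a, Abcb1a and the Slco1 carriers and loses Plvap, a protein of fenestrated vessels.

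The values are log2 array signals, and a difference of 1 is a 2-fold difference in signal. Array medians lay between 5.94 and 5.97, and the 3 arrays per group limited the precision. Lats1 was 7.82, 7.82 and 7.74 in DKO 1, 2 and 3 against 8.81, 8.34 and 8.98 in control 1, 2 and 3. Lats2 was 7.36, 7.18 and 7.27 in DKO 1, 2 and 3 against 7.16, 6.84 and 7.11 in the controls, which is not the direction of a deletion (limma adjusted p 0.285). The labels do not say which part of Lats2 was deleted, so its whole-gene signal does not check the genotype, and DKO here means the arrays labelled so. Markers of the labelled tissue were present in every array. Lhx2, a cortical selector gene, lay between 10.67 and 10.94, and Tbr1, an early neuron transcription factor, between 8.48 and 9.07. One embryo, DKO 2, stood apart for vascular genes. It was the lowest of the 6 arrays for 30 of the 41 genes (73.2%), against 25.2% of the 16724 genes tested. DKO 1 was lowest for 6 (20.7% of all genes tested) and DKO 3 for 0, and control 1 was the highest array for 16 (17.9% of all genes tested). Results are therefore given with and without DKO 2.

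A single gene of the 41, the lipid transporter Mfsd2a, rose in the DKO cortex, and a single gene, the Tie2 ligand Angpt1, fell. The other 39 did not pass the test (limma, Benjamini-Hochberg adjusted p under 0.05 over all 16724 genes). Among all genes tested 1.36% rose and 0.359% fell by this rule. Most of the 41 leaned lower. The mean was lower in DKO for 36 of them (87.8%), against 60.2% of all genes tested, and the median log2 difference (DKO minus control) was -0.17, against -0.028 over all genes tested. In 9 genes every DKO embryo lay below every control (22.0%, against 13.4% of all genes tested), and in 2, Mfsd2a and Esm1, they lay above (8.22% of all genes tested). At an unadjusted limma p under 0.05, 9 were lower and 2 higher, against 9.18% and 6.39% of all genes tested.

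The lean was smaller without DKO 2. Leaving out that embryo, the mean was lower in DKO for 28 of 41 genes (68.3%, against 56.3% of all genes tested), and the median log2 difference was -0.053. The median deviation of the 41 genes from the control mean was -0.46 in DKO 2, -0.11 in DKO 1 and -0.028 in DKO 3. Among control arrays the same median was 0.064, -0.037 and -0.036, so DKO 3 lay within the control range. In whole tissue, fewer vascular cells and less RNA per vascular cell cannot be told apart.

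**Figure D1:**
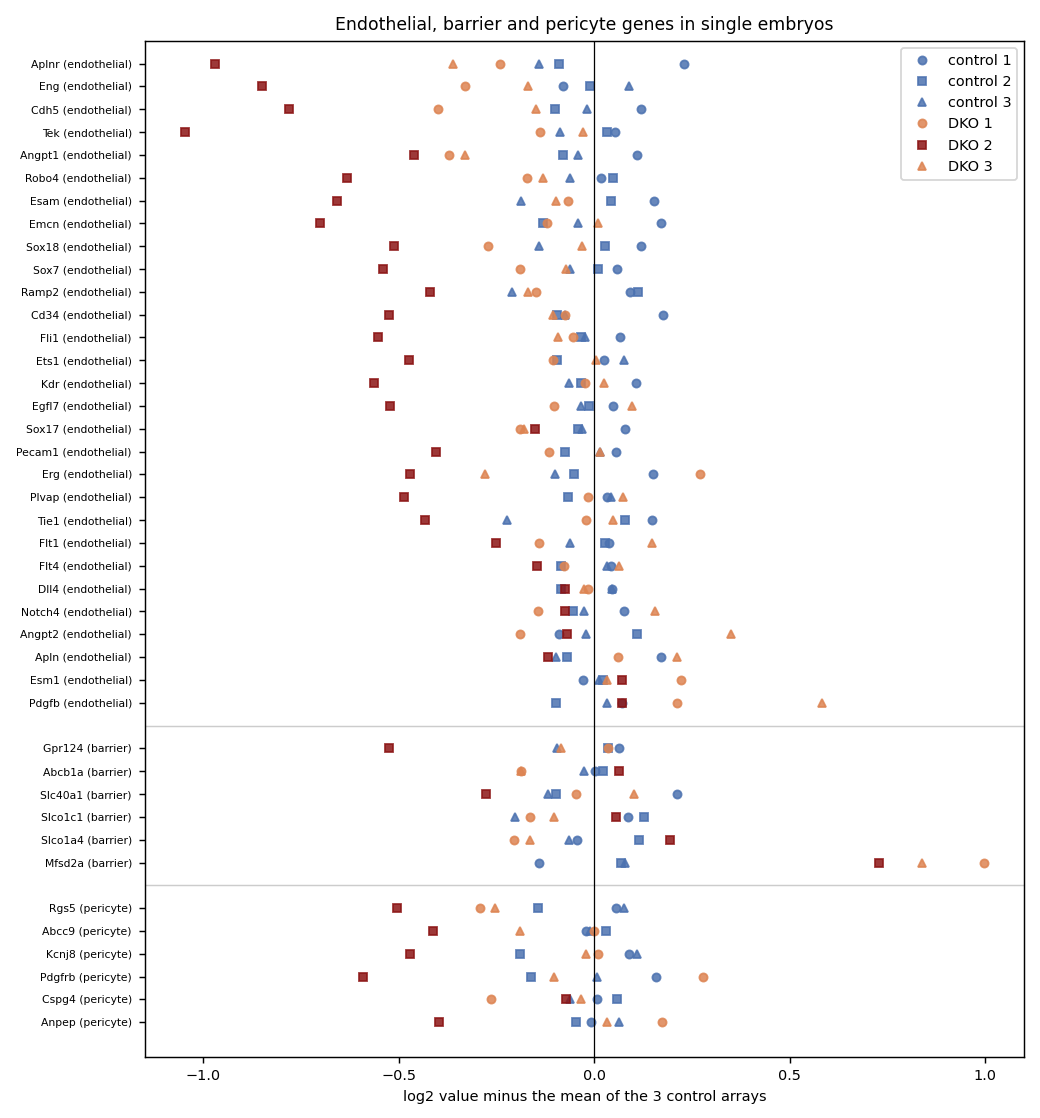
Each of the 41 genes in each embryo, as the log2 value minus the mean of the 3 control arrays, with endothelial, barrier and pericyte genes in separate blocks. The dark red squares (DKO 2) lie farthest left for 30 genes, and Mfsd2a is the gene whose DKO points stand far to the right of its controls.

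Of the 6 barrier genes Mfsd2a alone rose, and the other 5 had lower means in DKO. Mfsd2a, which carries lysophosphatidylcholine with docosahexaenoic acid into the brain and restrains vesicular transport across endothelium, is also made outside vessels, for example in liver. Its log2 values were 8.86, 9.07 and 9.08 in control 1, 2 and 3, and 10.00, 9.73 and 9.84 in DKO 1, 2 and 3. Every DKO embryo was above every control embryo, DKO 2 included. The means were 9.00 ± 0.13 (SD, n = 3) in control and 9.86 ± 0.14 (SD, n = 3) in DKO, a log2 fold change of 0.86 ± 0.09 (SE, 95% interval 0.64 to 1.07), or 1.81-fold, with a limma adjusted p of 0.00283. By exact permutation of the 6 arrays (two-sided) p was 0.1, the lowest value that 3 against 3 can reach, and without DKO 2 the log2 fold change was 0.92 with a limma adjusted p of 0.00389.

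The other 5 barrier genes did not pass the test and had small differences, between -0.19 and -0.058 on the log2 scale. Abcb1a, the drug efflux pump P-glycoprotein, had log2 values of 6.39, 6.41 and 6.36 in control 1, 2 and 3 and of 6.20, 6.45 and 6.20 in DKO 1, 2 and 3. Slco1c1, a carrier of thyroid hormone, had 5.71, 5.75 and 5.42 in the controls and 5.46, 5.68 and 5.52 in the DKO arrays. Slco1a4, an organic anion carrier, had 5.20, 5.36 and 5.18 in the controls and 5.04, 5.44 and 5.08 in the DKO arrays. In these 3 transporters DKO 2 was not the low array, and for Abcb1a and Slco1a4 it was the highest of the 6. Gpr124, the Wnt7 coreceptor, had 7.55, 7.52 and 7.39 in the controls and 7.52, 6.96 and 7.40 in the DKO arrays. It thus shared the dip in DKO 2 and had a log2 difference of -0.19 ± 0.13 (SE), or -0.027 without that embryo. Slc40a1, the iron exporter ferroportin, had 6.46, 6.15 and 6.13 in the controls and 6.20, 5.97 and 6.35 in the DKO arrays. It was likewise lowest in DKO 2. The 95% intervals ran from -0.50 to 0.11 for Gpr124 and from -0.29 to 0.08 for Abcb1a, so differences within these bounds were not resolved with 3 embryos a group. Genes of the hem and the choroid plexus, an epithelium that also makes Slco1 carriers, had median deviations of 0.41, 0.45 and 0.21 in DKO 1, 2 and 3. The mean log2 level of these 14 genes was 5.95 to 6.23 in the controls and 6.33 to 6.74 in the DKO arrays. Of the 13 tested, 2 rose, Lmx1a and Ttr, against 1.36% of all genes tested. The part of this epithelium in the values of Mfsd2a and the other transporters was not tested.

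**Figure D2:**
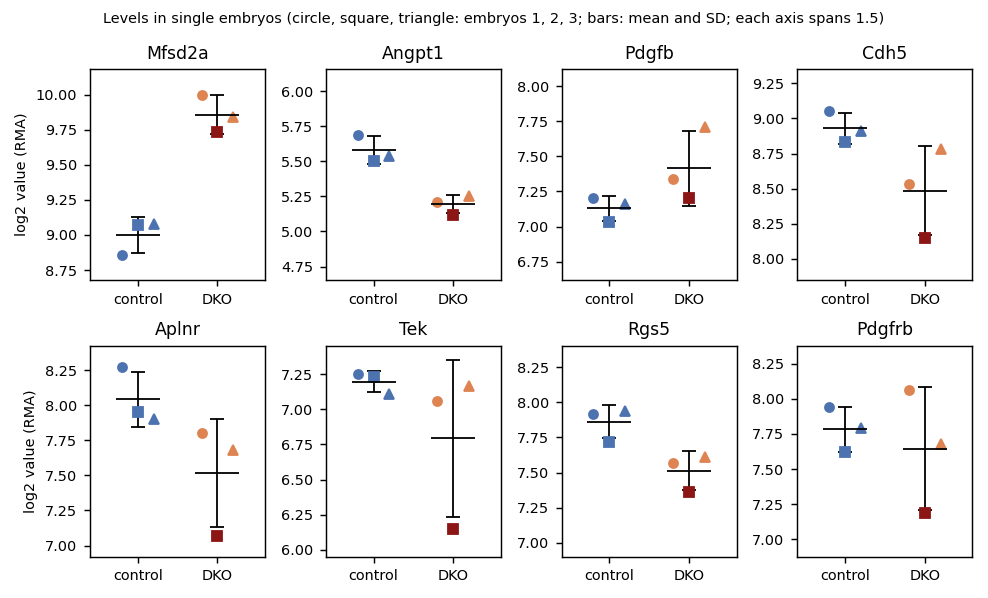
Log2 values of 8 genes in single embryos, control at left and DKO at right in each panel, with the mean and SD of 3 embryos as bars and all axes spanning 1.5 log2 units. Mfsd2a and Angpt1 separate the groups without overlap, and Rgs5, Aplnr and Cdh5 do so with smaller gaps. For Tek the wide DKO bar reflects the dark red square of DKO 2. For Pdgfrb it reflects both DKO 1, the highest array, and DKO 2, the lowest.

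Among ligands, Angpt1 fell and Pdgfb leaned higher. Angpt1, the agonist of Tek, is made by mural and other perivascular cells and also by neural cells. Its log2 values were 5.69, 5.50 and 5.54 in control 1, 2 and 3 and 5.21, 5.12 and 5.25 in DKO 1, 2 and 3, with no overlap. The means were 5.58 ± 0.10 (SD, n = 3) and 5.19 ± 0.06 (SD, n = 3), a log2 fold change of -0.39 ± 0.07 (SE, 95% interval -0.56 to -0.22), with a limma adjusted p of 0.0396 and an exact permutation p of 0.1. The gene was dim, near the lower limit of 5.02 for tested genes, and a second Angpt1 row lay under that limit, at a mean of 3.94 and a difference of -0.12. The call did not survive the omission of any single array (6 fits, limma adjusted p 0.0642 to 0.154), in the fit with the replicate number as a block (0.0777) and with no limit on dim genes (0.0550). The difference itself ranged from -0.43 to -0.33 across those 6 fits, and it was -0.35 without DKO 2.

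Pdgfb, the pericyte attractant of endothelial cells, had log2 values of 7.20, 7.03 and 7.16 in the controls and 7.34, 7.20 and 7.71 in the DKO arrays. DKO 3 was high, whereas DKO 2 lay at the level of control 1. The log2 difference was 0.29 ± 0.12 (SE) with a limma adjusted p of 0.319, and 0.40 without DKO 2 (limma adjusted p 0.171). Angpt2, the context-dependent partner of Angpt1, and Apln, the ligand of Aplnr made by sprouting endothelium, had differences of 0.026 and 0.049. Dll4, the Notch ligand of sprout tips, differed by -0.039 ± 0.06 (SE), and its 6 arrays all lay between 6.47 and 6.60.

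Endothelial receptors did not pass the test, and they differed in how far DKO 2 carried their differences. Aplnr, the apelin receptor of venous and sprouting endothelium, had the largest drop in mean of the 41 genes. Its log2 values were 8.27, 7.95 and 7.90 in the controls and 7.80, 7.07 and 7.68 in the DKO arrays, so all 3 DKO embryos lay below the controls. The difference was -0.53 ± 0.18 (SE) with a limma adjusted p of 0.218, or -0.30 without DKO 2. Tek had 7.25, 7.23 and 7.11 in the controls and 7.06, 6.15 and 7.17 in the DKO arrays. DKO 2 was thus 1.05 below the control mean, while DKO 1 and DKO 3 lay near it. The Tek difference was -0.40 ± 0.23 (SE) with a limma adjusted p of 0.457, and -0.082 without DKO 2.

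Kdr, the main VEGF receptor, had log2 values of 8.12, 7.98 and 7.95 in the controls and 7.99, 7.45 and 8.04 in the DKO arrays. Apart from DKO 2 these values overlapped, and the difference of -0.18 ± 0.15 (SE) became 0.0034 without that embryo. Flt1, the decoy VEGF receptor, Flt4, the VEGF-C receptor, and Tie1, the orphan partner of Tek, followed the same course, with differences of -0.08, -0.055 and -0.14, and of 0.0014, -0.0076 and 0.010 without DKO 2. Ramp2, which turns the calcitonin-like receptor into an adrenomedullin receptor, had 7.24, 7.26 and 6.94 in the controls and 7.00, 6.73 and 6.98 in the DKO arrays. Its difference was -0.25 ± 0.11 (SE) with a limma adjusted p of 0.319, or -0.16 without DKO 2, and the groups overlapped through control 3. Notch4, an endothelial Notch receptor, differed by -0.022.

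Nearly all surface and junction genes of endothelium showed the dip in DKO 2, and none passed the test. Of these 10 genes, 9 were lowest in DKO 2, against 25.2% of all genes tested. Cdh5, the adhesion molecule of endothelial junctions (VE-cadherin), had log2 values of 9.05, 8.83 and 8.91 in the controls and 8.53, 8.15 and 8.78 in the DKO arrays. Eng, a TGF-beta coreceptor (endoglin), had 8.03, 8.10 and 8.20 in the controls and 7.78, 7.26 and 7.94 in the DKO arrays. Both separated the groups without overlap. Their differences in means were -0.44 ± 0.14 (SE, limma adjusted p 0.194) and -0.45 ± 0.16 (SE, limma adjusted p 0.218). Without DKO 2 these differences were -0.27 and -0.25, with limma adjusted p of 0.254 and 0.224. Robo4, an endothelial roundabout receptor that stabilises vessels, had 6.62, 6.65 and 6.54 in the controls and 6.43, 5.97 and 6.47 in the DKO arrays. It too did not overlap, with a difference of -0.31 ± 0.13 (SE) and a limma adjusted p of 0.284. Without DKO 2 the Robo4 difference was -0.15 (limma adjusted p 0.354).

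Other surface genes overlapped between the groups, except Esm1. Pecam1 (CD31), the general endothelial marker, had 7.86, 7.73 and 7.82 in the controls and 7.69, 7.40 and 7.82 in the DKO arrays, and its difference of -0.17 became -0.053 without DKO 2. Cd34, a sialomucin of endothelium, had 9.04, 8.77 and 8.79 in the controls and 8.79, 8.34 and 8.76 in the DKO arrays. The Cd34 difference of -0.23 was -0.089 without DKO 2. Plvap had 7.26, 7.16 and 7.27 in the controls and 7.21, 6.74 and 7.30 in the DKO arrays, and its difference of -0.14 turned to 0.026 without DKO 2. Esam and Emcn, an adhesion molecule and an endothelial sialomucin, had differences of -0.27 each, and Egfl7, a secreted endothelial protein, of -0.18. Without DKO 2 the differences of Esam, Emcn and Egfl7 were -0.082, -0.055 and -0.0068. Esm1, a proteoglycan of tip cells, was the exception in direction at 0.11 ± 0.07 (SE, limma adjusted p 0.522).

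All 6 endothelial transcription factors had lower means in DKO, between -0.27 and -0.16, and none passed the test. Sox17, an arterial factor, had log2 values of 6.85, 6.73 and 6.74 in the controls and 6.58, 6.62 and 6.59 in the DKO arrays. Its DKO embryos lay close together and below all controls, so this difference of -0.17 ± 0.06 (SE, limma adjusted p 0.229) was not carried by DKO 2 and was -0.18 without it. Sox7 had 6.75, 6.70 and 6.63 in the controls and 6.50, 6.15 and 6.62 in the DKO arrays, and Sox18 had 6.55, 6.46 and 6.29 against 6.16, 5.92 and 6.40. These relatives of Sox17 differed by -0.27 each, and by -0.13 and -0.15 without DKO 2. Fli1, an ETS-family factor, had 7.89, 7.79 and 7.80 in the controls and 7.77, 7.27 and 7.73 in the DKO arrays. The Fli1 difference of -0.23 was -0.073 without DKO 2. Ets1 and Erg, relatives of Fli1, were also lowest in DKO 2. Their differences of -0.19 and -0.16 were -0.050 and -0.0064 without that embryo.

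**Figure D3:**
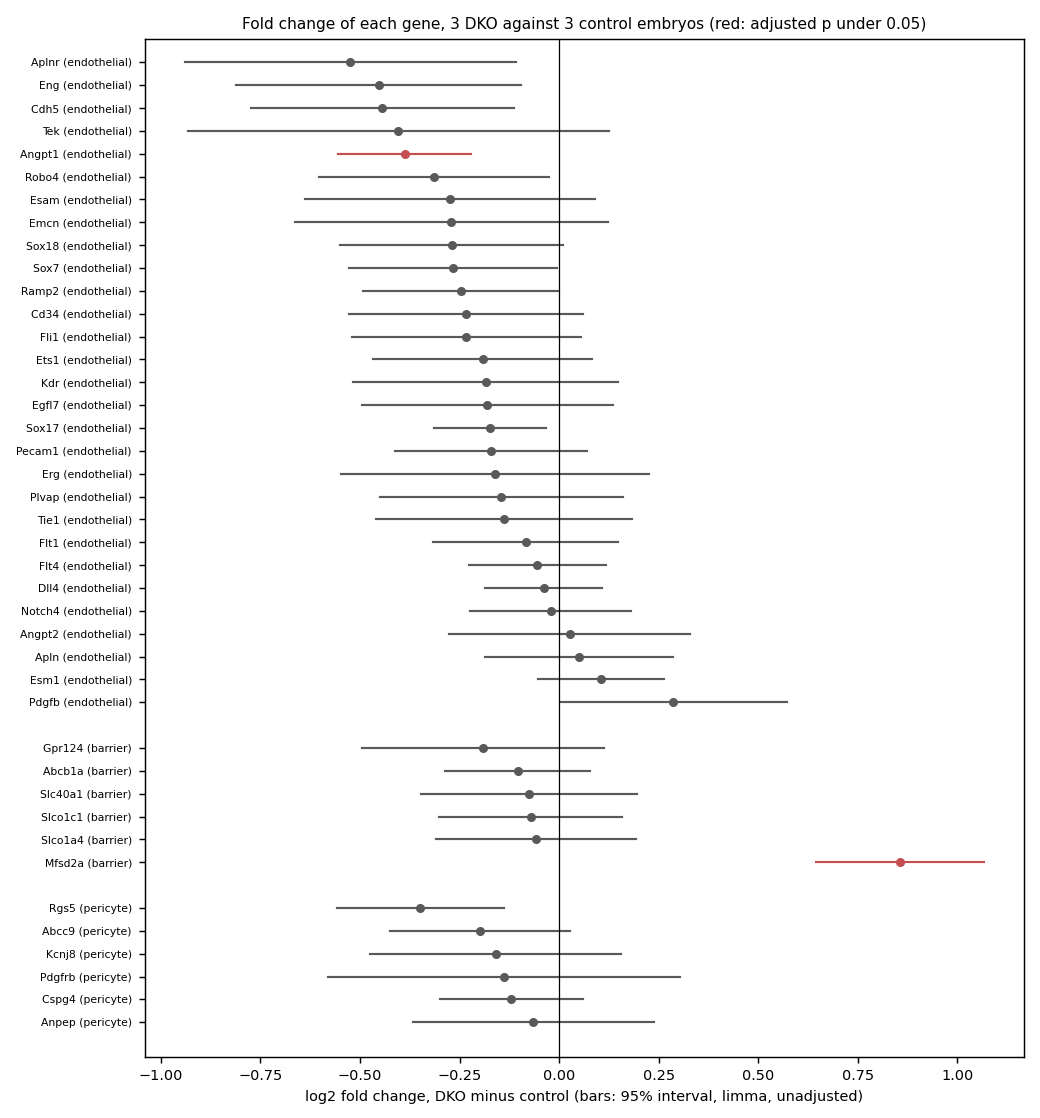
Log2 fold change (DKO minus control) of each of the 41 genes, with unadjusted 95% intervals from limma and genes past the adjusted threshold in red. Mfsd2a (0.86) and Angpt1 (-0.39) are red, and most other points lie left of 0 with intervals that reach or nearly reach it.

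Promoters are shown for endothelial genes that dipped together in DKO 2 (Eng, Robo4, Emcn, Tek) and for Mfsd2a, which rose, so that their sequence can be set side by side. Each is the 250 bases before the gene start, from RefSeq on build GRCm38.p6, written 5′ to 3′ on the gene's strand: Eng at chr2:32646345-32646594 (+), Robo4 at chr9:37401722-37401971 (+), Emcn at chr3:137340828-137341077 (+), Tek at chr4:94739039-94739288 (+) and Mfsd2a at chr4:122961189-122961438 (-). Capitals mark the letters AGGAAG on either strand, a core that ETS factors such as Erg and Fli1 can bind.
Eng: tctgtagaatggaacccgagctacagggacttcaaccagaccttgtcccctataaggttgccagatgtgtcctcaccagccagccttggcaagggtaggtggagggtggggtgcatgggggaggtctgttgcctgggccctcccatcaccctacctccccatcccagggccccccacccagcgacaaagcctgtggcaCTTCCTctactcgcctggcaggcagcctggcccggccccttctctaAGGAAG
Robo4: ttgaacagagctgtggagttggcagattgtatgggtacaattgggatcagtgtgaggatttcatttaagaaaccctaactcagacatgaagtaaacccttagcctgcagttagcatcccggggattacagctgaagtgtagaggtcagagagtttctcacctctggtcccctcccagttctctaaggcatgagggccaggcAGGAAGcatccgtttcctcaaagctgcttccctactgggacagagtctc
Emcn: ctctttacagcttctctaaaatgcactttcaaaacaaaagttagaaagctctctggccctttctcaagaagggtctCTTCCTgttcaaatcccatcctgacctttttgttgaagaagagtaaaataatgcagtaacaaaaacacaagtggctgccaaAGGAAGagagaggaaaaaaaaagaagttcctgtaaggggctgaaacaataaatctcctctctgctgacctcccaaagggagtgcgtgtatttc
Tek: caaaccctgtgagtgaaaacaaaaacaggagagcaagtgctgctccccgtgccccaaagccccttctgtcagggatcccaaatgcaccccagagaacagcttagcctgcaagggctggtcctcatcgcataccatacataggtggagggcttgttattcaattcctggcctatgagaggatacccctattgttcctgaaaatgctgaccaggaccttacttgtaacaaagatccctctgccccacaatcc
Mfsd2a: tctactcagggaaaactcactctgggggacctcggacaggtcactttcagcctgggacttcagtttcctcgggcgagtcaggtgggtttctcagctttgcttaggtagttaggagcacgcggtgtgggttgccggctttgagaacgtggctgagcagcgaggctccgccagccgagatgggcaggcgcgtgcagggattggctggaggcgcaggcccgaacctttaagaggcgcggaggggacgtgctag
The ETS letters stood 2 times in the Eng and Emcn windows, 1 time in that of Robo4 and 0 times in those of Tek and Mfsd2a. RefSeq promoters were at hand for 24 of the 41 genes (28 promoters), and 14 of these 28 (50%) held AGGAAG, against 29.5% of 32851 promoters of the same length. Genes with AGGAAG included Abcb1a, Slco1a4 and Slco1c1, in which DKO 2 was not the low array. The letters GGAATG, which TEAD factors, the partners of YAP, can bind, were searched on both strands as well. Both motifs hold the letters GGAA, and a given GGAA on a strand cannot belong to both. GGAATG was in none of the 5 windows shown, in 5 of the 28 promoters (17.9%) and in 12.6% of all. These are matches of letters in a short window and say nothing of binding.

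All 6 pericyte genes had lower means in DKO, between -0.35 and -0.064, and none passed the test. Rgs5, a regulator of G-protein signalling that marks pericytes, had log2 values of 7.92, 7.72 and 7.94 in the controls and 7.57, 7.36 and 7.61 in the DKO arrays. Every DKO embryo was below every control. The difference in means was -0.35 ± 0.09 (SE, 95% interval -0.56 to -0.14), with a limma adjusted p of 0.115 and an exact permutation p of 0.1. Without DKO 2 the difference was -0.27 (limma adjusted p 0.205). A second, dimmer row of Rgs5 differed by 0.046, so the rows of this gene disagreed in sign.

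The receptor Pdgfrb, by which pericytes respond to Pdgfb, had 7.94, 7.62 and 7.79 in the controls and 8.06, 7.19 and 7.68 in the DKO arrays. DKO 1 was thus the highest and DKO 2 the lowest of the 6, and the difference of -0.14 ± 0.19 (SE) turned to 0.089 without DKO 2. The channel subunits Kcnj8 and Abcc9, which form a potassium channel of pericytes, shared the dip. Kcnj8 had 6.42, 6.14 and 6.44 against 6.34, 5.86 and 6.31, and Abcc9 had 6.88, 6.93 and 6.89 against 6.90, 6.49 and 6.71, so DKO 2 was low in both. Their differences of -0.16 and -0.20 were -0.0034 and -0.095 without DKO 2. Cspg4, the proteoglycan NG2, had 6.86, 6.91 and 6.79 in the controls and 6.59, 6.78 and 6.82 in the DKO arrays. Here DKO 1 was the low embryo, and the difference was -0.12 ± 0.08 (SE, limma adjusted p 0.523). Anpep, the aminopeptidase CD13, had a difference of -0.064, or 0.10 without DKO 2. Pericyte genes are also made by other mesenchyme, and the 12 measured markers of meninges and fibroblasts had a median deviation of -0.49 in DKO 2, 0.12 in DKO 1 and -0.020 in DKO 3.

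**Figure D4:**
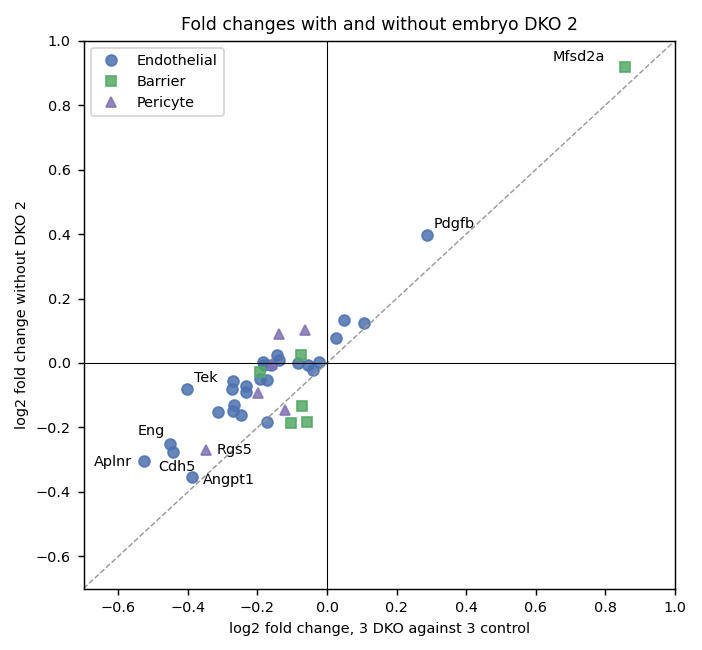
Log2 fold change of the 41 genes with all 6 arrays (horizontal) and without DKO 2 (vertical), with the dashed line marking equal values. Most endothelial and pericyte genes lie above the dashed line and nearer to 0 without DKO 2, while Mfsd2a (0.86 and 0.92) and Angpt1 (-0.39 and -0.35) stay near it.

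The embryo DKO 2 was also low for other cell types that reach the cortex from outside the neural tube. The share of all genes tested that were lowest in DKO 2 was 25.2%. All 6 erythroid markers with a row were lowest in DKO 2, among them the red cell anion exchanger Slc4a1 at 7.72, against 8.72 to 9.08 in the controls and 8.94 and 8.97 in DKO 1 and DKO 3. The mean log2 level of the erythroid list was 7.42 in DKO 2, 7.97 to 7.98 in the controls and 8.07 to 8.09 in the other DKO embryos. DKO 2 was also lowest for 9 of 13 genes of microglia and macrophages, whose list mean was 6.23 there, 6.53 in each control and 6.47 to 6.54 in the other DKO embryos. The same held for 9 of 12 genes of meninges and fibroblasts, with a list mean of 6.70 in DKO 2, 7.01 to 7.28 in the controls and 7.16 to 7.36 in the other DKO embryos. Genes of neural cells showed no such excess of lowest values in DKO 2. DKO 2 was lowest for 2 of 9 genes of cortical progenitors (22.2%, near the 25.2% of all genes tested) and for 0 of 10 of cortical neurons. The neuron genes nonetheless had lower values in the DKO group. All 10 had a lower DKO mean, against 60.2% of all genes tested. Their median was -0.23 (-0.25 without DKO 2), against -0.18 for the 29 endothelial genes. In 6 of the 10 every DKO embryo lay below every control, against 13.4% of all genes tested. None of the 10 passed the test, and 7 were lower at an unadjusted limma p under 0.05, against 9.18% of all genes tested. Their median deviations were -0.30, -0.16 and -0.23 in DKO 1, 2 and 3, so for neuron genes the other DKO embryos lay lower than DKO 2. Single genes of these lists passed the test: Ogn, a matrix proteoglycan of meninges, rose by 0.34, the progenitor Notch target Hes5 fell by 0.90 and the glutamate transporter Slc1a3 rose by 0.40 on the log2 scale (limma adjusted p 0.0303, 0.00197 and 0.0397). The smallest p among uncalled lists were those of Hbb-y and Slc4a1 (-0.19 and -0.32), C1qc and Trem2 (-0.28 each), and Eomes and Neurod6 (-0.44 and -0.54). What share of the vascular differences goes with the make-up of that 1 sample was not tested.

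**Figure D5:**
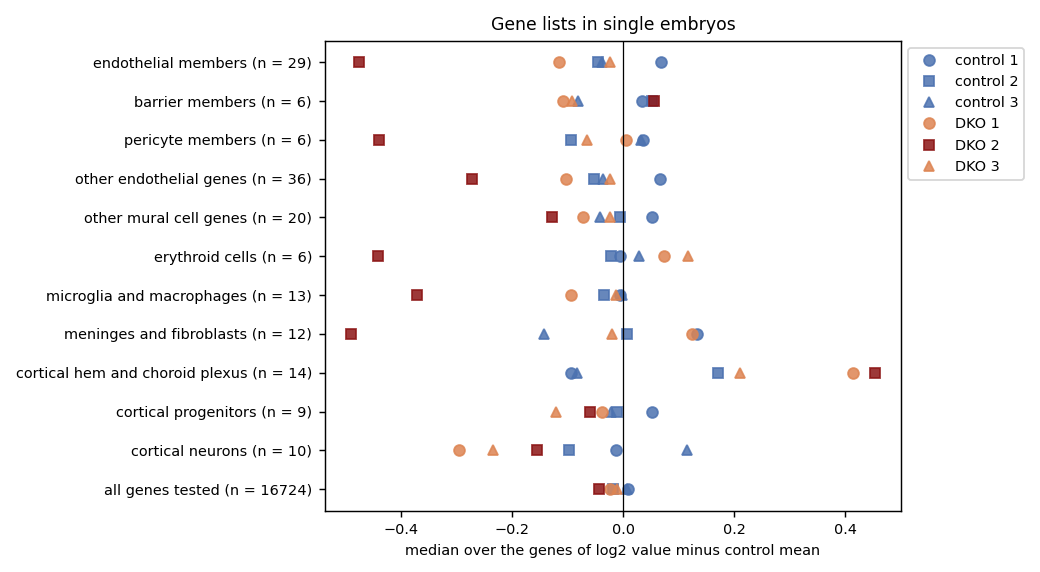
Median over each gene list of the log2 value minus the control mean, for each embryo, with the number of genes in brackets. DKO 2 is far left for endothelial (-0.48) and pericyte (-0.44) genes and for erythroid, microglial and meningeal lists, and not for barrier genes (0.056). For cortical neurons all 3 DKO embryos lie left of the controls, DKO 2 (-0.16) the least.

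A second list of endothelial genes, none of them among the 41, gave a like picture. Of 35 tested, 1 rose, 1 fell and 33 did not pass, where 1.36% of all genes tested rose and 0.359% fell. The median difference of the 35 was -0.12, with 30 lower. Without DKO 2 it was -0.036, with 23 lower and 12 higher. DKO 2 was the lowest array for 27 of 36 with a row (75%), against 25.2% of all genes tested. Hey1, a Notch effector of arterial endothelium that neural progenitors also make, fell by 0.45 on the log2 scale (SE 0.06, limma adjusted p 0.00820), from 10.37 to 10.49 in the controls to 9.95 to 9.99 in the DKO arrays. Tjp1, the tight junction scaffold ZO-1 of endothelium and of the neuroepithelium alike, rose by 0.48 ± 0.09 (SE, limma adjusted p 0.0334). With 1 array omitted, Tjp1 passed in 1 of 6 fits, that without DKO 2. The 18 tested genes of mural cells outside the 41 had a median difference of -0.099, with 13 lower. Without DKO 2 it was -0.014, with 9 lower. DKO 2 was the lowest array for 8 of the 20 mural genes with a row (40%), against 25.2% of all genes tested. Of the 18 tested, 1 rose, 0 fell and 17 did not pass, against the same 1.36% and 0.359% of all genes tested. Mcam, the adhesion molecule CD146 of pericytes and endothelium, was that gene, with log2 values of 8.32, 8.11 and 8.21 in the controls and 9.68, 9.41 and 9.76 in the DKO arrays. Its log2 fold change was 1.40 ± 0.10 (SE), or 2.64-fold (limma adjusted p 4.05e-04), and every DKO embryo was above every control, DKO 2 included. Which cells of the cortex held this rise was not tested.

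A few genes changed in a list of angiogenic signals and their receptors. Of 25 tested angiogenic signals and their receptors, 3 rose, 0 fell and 22 did not pass. Among all genes tested 1.36% rose and 0.359% fell. The median difference was -0.016 over the 27 genes of this list with a row. Under 4 alternatives 5 genes of this list passed, of which 1 or 2 fell. The growth factor Tgfb2 rose 2.08-fold, from 7.23, 7.34 and 7.25 in the controls to 8.58, 8.01 and 8.40 in the DKO arrays (limma adjusted p 0.00574). Itgb8, the integrin subunit by which neuroepithelium activates TGF-beta around vessels, rose by 0.64 ± 0.07 (SE, limma adjusted p 0.00391). Cxcr4, the chemokine receptor for Cxcl12, rose by 0.69 ± 0.06 (SE, limma adjusted p 9.86e-04). In each of these 3 genes every DKO embryo exceeded every control. Which cells of the cortex held these transcripts was not tested.

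The progenitor signals of the background, chosen here after their values were seen, did not pass. Vegfa had log2 values of 8.46, 8.18 and 8.16 in the controls and 8.78, 8.62 and 8.90 in the DKO arrays, with no overlap. Its difference was 0.50 ± 0.10 (SE, limma adjusted p 0.0571), and it passed in 6 of 16 alternatives, over which the adjusted p ranged from 0.0238 to 0.187. Wnt7a and Wnt7b differed by -0.066 ± 0.06 (SE) and -0.16 ± 0.08 (SE), and their groups overlapped. Nrp1, a coreceptor for VEGF and semaphorins, was lower in every DKO embryo than in every control. Its difference in means was -0.49 ± 0.10 (SE, limma adjusted p 0.0649).

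Of 16 tested secreted regulators of vessel growth, 5 rose, 0 fell and 11 did not pass, against 1.36% and 0.359% of all genes tested. Thbs1, the antiangiogenic matrix protein thrombospondin-1, rose 9.44-fold, from 7.66, 7.43 and 7.42 in the controls to 10.86, 10.62 and 10.73 in the DKO arrays (limma adjusted p 2.83e-06). The matricellular YAP targets Ccn1 and Ccn2 rose 3.76-fold and 3.28-fold (limma adjusted p 2.53e-04 and 2.76e-04). With the mean of both Ccn2 rows the log2 fold change was 0.90 in place of 1.71, and it still passed. Adamts1, a secreted protease that can release thrombospondin fragments, rose 1.63-fold (limma adjusted p 0.00445), and Sparc, a matrix glycoprotein, 1.72-fold (limma adjusted p 0.00649). These lists were drawn up with earlier results for these embryos known.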

How the data were processed

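Total RNA of the cortex of 6 embryos was converted to sense-strand cDNA, labelled with biotin and hybridised to Affymetrix arrays, per the labels' protocols. The deposited log2 values were made by the authors with RMA, per the submitters' processing notes, which name no version (not given in the sources used here). Because RMA equalises the arrays' distributions, a shift shared by most transcripts is removed. Rows with exactly 1 symbol in the platform annotation (23521 of 41345) were used, and of a gene's rows the one with the highest mean over 6 arrays. Genes with a mean under the 25th percentile of these rows (5.02) were left out, which removed 0 of the 41 genes described and left 16724. DKO and control were compared with limma 3.58.1 in R 4.3.3 (lmFit, eBayes, no covariate, two-sided), and calls used a Benjamini-Hochberg adjusted p under 0.05. Scripts were tested on simulated data. Values in every array are given for those of the 41 genes past the threshold, the 4 smallest p in each role group, and 10 defining genes fixed by name. They are also given for Slco1a4 and Slc40a1, so that every barrier gene is shown. Of the other lists the genes past the threshold are named, or the 2 with the smallest p where none passed. The members and lists were chosen with earlier results of these data known, so no list was tested. Alternatives were other limits on dim genes, scalings, variance models, row choices, a replicate block and leaving out each array, and, chosen after seeing the data, array weights and matching by symbol alone.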

Additional observations from a re-analysis of the deposited data

How the results depend on the processing

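The increase of Mfsd2a kept its direction and its call in each of the 16 alternatives run, with log2 fold changes from 0.78 to 0.92 and limma adjusted p from 4.18e-04 to 0.0220. The count of called genes among the 41 was 2, and it was 1 (Mfsd2a alone, with 0 endothelial genes called) with no limit on dim genes, with the stricter limit, with the mean of all rows of a gene and with the replicate block. In the stricter limit and the mean of rows Angpt1 was not among the genes tested. Leaving out 1 array gave 1 called gene of the 41 and 0 endothelial genes in each of the 6 fits. The other endothelial list had 1 to 3 calls in these fits, and over all genes they gave 134 to 314 calls, against 288 with all arrays and 485 with a trended variance. The list of angiogenic signals and their receptors had 3 calls (3 to 4 without 1 array), all of them increases. There were 5 with the stricter limit, a repeated quantile normalization or a trended variance (4 rose and 1 fell in each) and 5 with the replicate block (3 rose and 2 fell). The median of the secreted regulators was 0.072, and 0.38 with the stricter limit. Without control 1, control 2, control 3, DKO 1, DKO 2 or DKO 3 the median of the endothelial genes was -0.15, -0.20, -0.22, -0.27, -0.053 and -0.29, and the median of other mural genes ranged from -0.14 to -0.014. Pericyte genes had 0 calls in every alternative, with 1 at an unadjusted p under 0.05. Replicate numbers are shared by the groups but deviations of same-numbered arrays correlated at -0.10, 0.21 and 0.15, and control 1 correlated best with DKO 3, so the numbers were not taken to pair embryos. The replicate block gave 200 calls over all genes. Centring each array on its median moved the median difference of all genes from -0.028 to -0.00060, and 35 of the 41 genes then had a lower mean. No detection calls were used, so dim genes such as Angpt1, Angpt2 and Slco1a4 could not be told from background.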
